A study of Mus musculus with 2 samples.

Results

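The macrophage lineage transcription factors Maf, Spi1, Cebpa, Cebpb, Pparg, Bach1 and Nfe2l2 are 7 of the 27032 genes in the count tables, and they were chosen by name. They were measured in spleen cells of wild-type mice, which the methods place on the C57BL/6J background, after enrichment for CD11c on magnetic beads. There were 2 samples, WT1 and WT2, called replicates 1 and 2, of 1 condition with no treatment named in the labels. The methods describe the mice as adults of both sexes, the exact ages and the number of mice per sample are not given in the sources used here, and the sample tags of the run also marked other mice that are not analysed here. The single-cell transcriptomes held 46953398 UMIs in 3308 cells of replicate 1 and 43137746 UMIs in 3085 cells of replicate 2, where a UMI is a molecular barcode that counts each captured transcript once. No cell barcode was shared between the samples.

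Macrophages and dendritic cells (DCs) are both myeloid, and a small set of transcription factors sets them apart from lymphocytes and from each other. PU.1, encoded by Spi1, opens myeloid enhancers in both lineages. C/EBPα and C/EBPβ, encoded by Cebpa and Cebpb, act with it in the myelomonocytic branch. MAF is known for the mature, non-dividing state of tissue macrophages, and PPARγ, encoded by Pparg, for lipid handling and for the iron-recycling macrophages of the splenic red pulp. NRF2, encoded by Nfe2l2, and BACH1 both bind antioxidant response elements as partners of small MAF proteins. NRF2 activates genes of haem breakdown, iron export and glutathione synthesis there, whereas BACH1 represses them until haem removes it.

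The annotation used for positions was GENCODE M21 on GRCm38, the build of the deposited tables. Maf lies on the minus strand at chr8:115682942-115707794, Spi1 on the plus strand at chr2:91082390-91115756, and Cebpa on the plus strand at chr7:35119293-35121928. Cebpb lies on the plus strand at chr2:167688915-167690418, inside the region of Tmem189 on the opposite strand, to which 381 UMIs were assigned in macrophages. Pparg lies on the plus strand at chr6:115360951-115490399, Bach1 on the plus strand at chr16:87698945-87733346 and Nfe2l2 on the minus strand at chr2:75675513-75704641. Intronic reads were counted, so a count covers the whole gene region.

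The antioxidant response element that NRF2 and BACH1 share was searched as its core TGACNNNGC, on both strands, in RefSeq promoters of GRCm38.p6 that reach from 250 bases before to 50 bases after a transcript start. This core was found in 12.4% of all 32851 promoters. Among the members, 5 had a promoter in that table, and the core was found for Nfe2l2, Cebpb and Pparg. Of 20 known NRF2 and BACH1 target genes, 16 had a promoter, and 7 of these had the core (Srxn1, Gclm, Prdx1, Pgd, Me1, Txnrd1 and G6pdx). The lines below show the match with up to 20 flanking bases in 2 members and in 4 target genes whose levels are given further on. Each sequence lies upstream of the start, reads 5′ to 3′ along the gene, and carries the core in capitals, read as its reverse complement where it lies on the other strand. The last line shows a match to TTGCNNAA, a C/EBP motif found in 10.8% of all promoters and in Pparg alone of the members with a promoter. Both Pparg lines lie inside the annotated gene, upstream of later transcript starts.
Nfe2l2, chr2:75704875-75704913, - strand: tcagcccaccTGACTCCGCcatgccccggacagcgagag
Pparg, chr6:115362099-115362144, + strand: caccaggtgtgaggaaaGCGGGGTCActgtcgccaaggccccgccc
Gclm, chr3:122245403-122245451, + strand: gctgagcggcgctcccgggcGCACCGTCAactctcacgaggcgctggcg
Prdx1, chr4:116685446-116685494, + strand: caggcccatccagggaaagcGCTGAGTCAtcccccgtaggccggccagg
Txnrd1, chr10:82859094-82859142, + strand: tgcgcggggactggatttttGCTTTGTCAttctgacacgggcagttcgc
G6pdx, chrX:74428909-74428957, - strand: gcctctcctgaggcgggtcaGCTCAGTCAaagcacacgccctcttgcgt
Pparg, chr6:115421831-115421878, + strand: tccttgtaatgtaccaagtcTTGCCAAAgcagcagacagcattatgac
A PU.1 motif, GAGGAAG, was found in 13.6% of all promoters, and a short MAF motif, TGCTGAC, in 4.67%. The MAF motif can overlap the antioxidant core, since both share TGAC. Neither was found in the promoters of the 5 members. A match is a description of these letters, and binding was not measured.

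Cells were assigned to classes by the UMIs of marker genes, with the first rule that a cell met. Macrophages had at least 20 Vcam1 and 5 C1qb UMIs (293 and 130 cells in replicates 1 and 2). Mature DCs had at least 2 Ccr7 and 1 Fscn1 UMIs (138 and 173 cells), cDC1s at least 2 Clec9a and 1 Xcr1 UMIs (684 and 568 cells), and pDCs at least 3 Siglech and 1 Ccr9 UMIs (13 and 19 cells). B cells had at least 3 Cd79a UMIs (65 and 172 cells), T cells at least 2 Cd3e UMIs (41 and 159 cells) and NK cells at least 1 Ncr1 UMI (38 and 36 cells). The cDC2s were split into DCIR2 cDC2s, with at least 2 Clec4a4 UMIs (556 and 456 cells), and CLEC10A cDC2s, with at least 2 UMIs of Clec10a and Cd209a together (484 and 408 cells). No rule took 616 and 602 cells. None of the 7 members was used by a rule, and the marker genes of the rules were left out of the tests.

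All 12 other macrophage markers, among them Slc40a1, Adgre1 and Cd163, were highest in the macrophage class, where they summed to 24506 and 22133 CPM, that is UMIs scaled to a class total of 1000000 UMIs, in replicates 1 and 2, against 21.7 to 441 CPM in the 8 other classes. Of the markers of mature DCs, 7 of 8 were highest in their own class, of cDC1s 6 of 8, of pDCs 4 of 8, and all 6 each for B, T and NK cells. The cDC2 classes were less sharply marked. Of the DCIR2 cDC2 list, 1 of 6 was highest there, and of the CLEC10A cDC2 list, 1 of 6. Of the DCIR2 cDC2s, 209 and 156 cells also met the CLEC10A rule. The pDC class rested on 32 cells, of which 9 and 12 also met a cDC2 rule. It held the highest sum of monocyte markers (2154 and 2264 CPM) of the classes. Of these 9 markers, 2 were highest in pDCs and 4 (Vcan, Cd14, F13a1 and Chil3) were not found in them. Erythroid markers, 5 of 5, were highest in macrophages and differed between the samples there (3742 and 914 CPM). Their part in the results on macrophages was not tested.

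Maf, Pparg and Cebpb formed 1 pattern, with the level in macrophages far above every other class in both samples. Spi1, Bach1 and Nfe2l2 were at their highest among DC classes. Cebpa lay between these patterns, with its highest levels in CLEC10A cDC2s and macrophages and pDC values that spread widely. Levels are given as CPM of the summed UMIs of a class, first in replicate 1 and then in replicate 2. They are compared between classes for 1 gene at a time and not between genes.

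**Figure D1:**
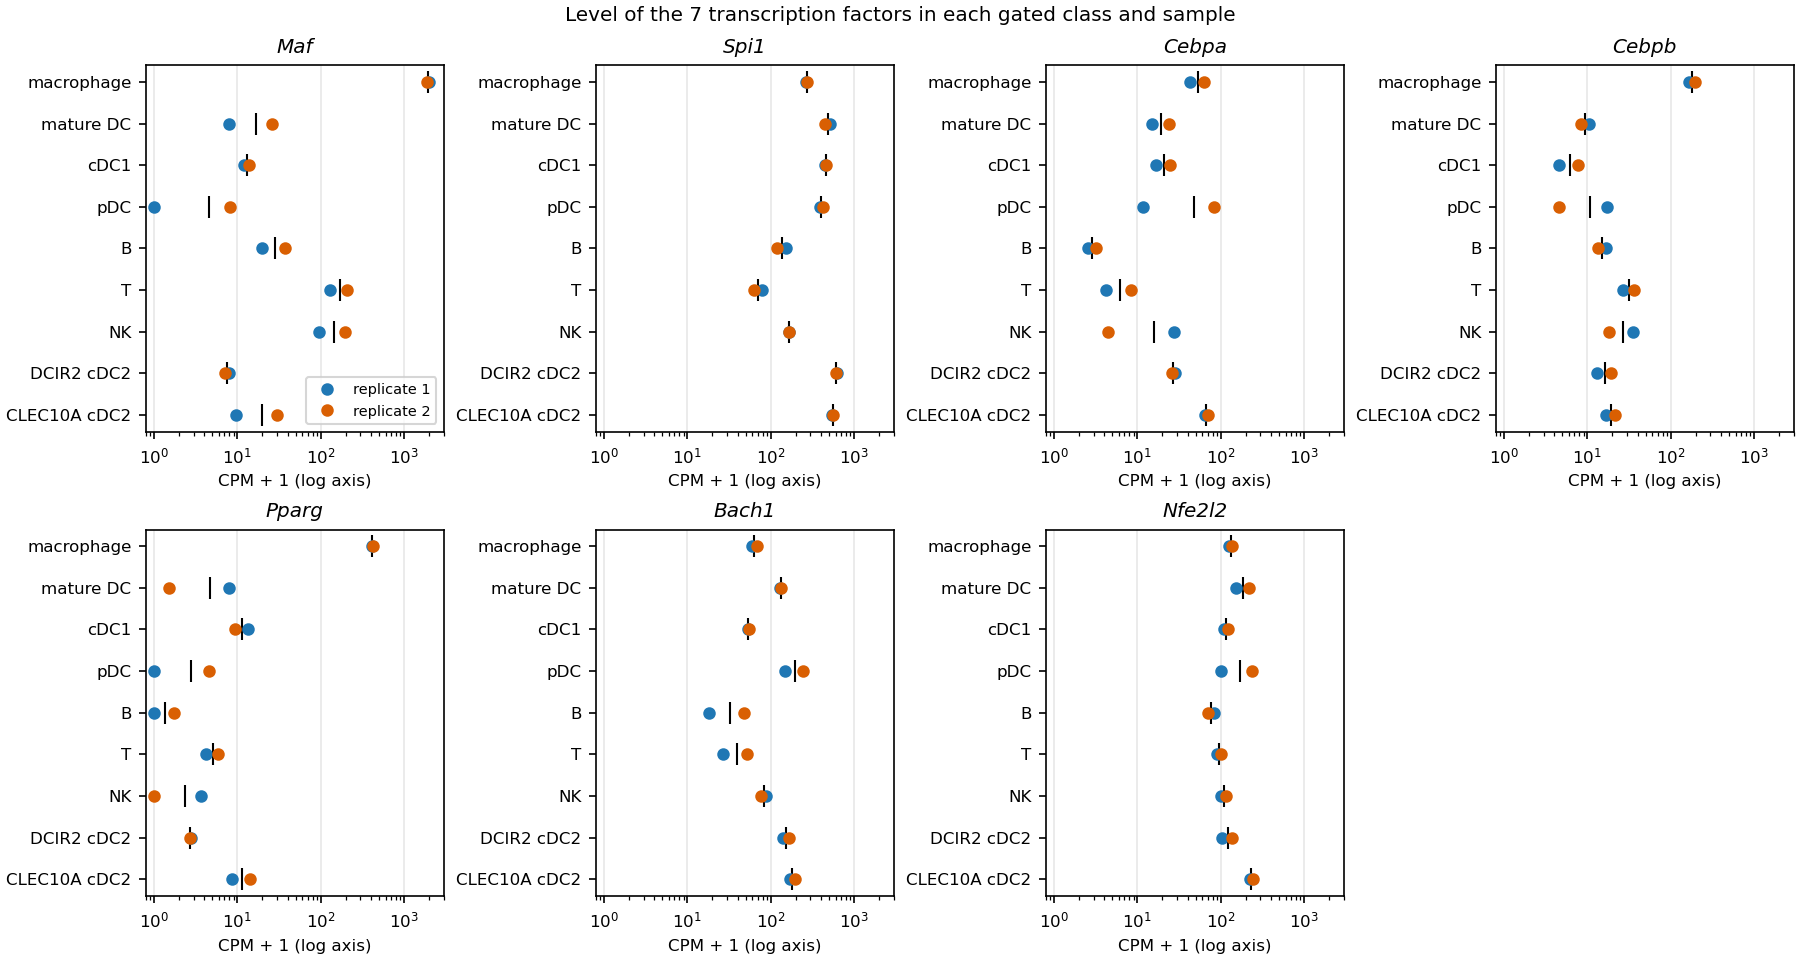
Level of each of the 7 transcription factors (x axis, CPM + 1 on a log axis) in the 9 classes (y axis), with 1 point for each of the 2 samples and a vertical mark at their mean. Maf, Pparg and Cebpb were highest in macrophages in both samples, Spi1 in DCIR2 cDC2s and Nfe2l2 in CLEC10A cDC2s.

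Maf was measured at 1999 and 1894 CPM in macrophages (11053 and 4643 UMIs). It reached 129 and 206 CPM in T cells and 95.4 and 194 CPM in NK cells. In B cells it was 18.8 and 36.1 CPM. Macrophages thus stood above all other classes in both samples, T and NK cells followed with overlapping values, and MAF is also known as a factor of helper T cells. In the DC classes, Maf was 8.61 and 29.3 CPM in CLEC10A cDC2s, 6.94 and 25 CPM in mature DCs, 11.2 and 12.7 CPM in cDC1s and 6.91 and 6.16 CPM in DCIR2 cDC2s. The pDCs held 0 and 2 Maf UMIs. The order from B cells down to cDC1s could not be resolved, because the values of neighbours overlapped between the samples, whereas DCIR2 cDC2s lay below cDC1s in both.

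Free RNA can give UMIs in cells that do not express a gene, so the level of Maf in other classes was set beside that of the 12 macrophage markers. In T cells, Maf reached 6.45% and 10.9% of its macrophage level, and the markers 0.342% and 0.442% of theirs. In NK cells, Maf reached 4.78% and 10.2%, and the markers 1.75% and 0.368%. The share of Maf in both lymphoid classes therefore exceeded that of the markers in both samples. In DCIR2 and CLEC10A cDC2s the share of Maf (0.325% to 1.55%) lay below that of the markers (0.937% to 1.99%) in each of the 4 sums. The part of stray transcripts in these levels was not tested. In cDC1s, Maf reached 0.558% and 0.670%, against 0.410% and 0.305% for the markers.

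Maf UMIs were found in 292 of 293 and 129 of 130 macrophages (99.7% and 99.2%, exact 95% intervals 98.1% to 99.99% and 95.8% to 99.98%), with medians of 34 and 33 UMIs per cell and the highest cells at 131 and 113. In NK cells the shares were 34.2% and 44.4% and in T cells 14.6% and 27%. The cells of these classes held fewer UMIs (medians of 6145 to 7826 per cell) than macrophages (19313 and 18136.5). The T-cell UMIs of Maf were uneven, with single cells at up to 19 and 41 UMIs in the 2 samples. The higher Maf of CLEC10A cDC2s in replicate 2 also came from few cells, since 27 of 484 and 35 of 408 cells held a UMI and 1 cell of replicate 2 held 38 of the 137 UMIs.

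Pparg was measured at 411 and 422 CPM in macrophages (2274 and 1035 UMIs). Among DCs it was 12.3 and 8.43 CPM in cDC1s (163 and 99 UMIs), 7.69 and 13.2 CPM in CLEC10A cDC2s and 1.8 and 1.67 CPM in DCIR2 cDC2s (13 and 10 UMIs). These values placed cDC1s and CLEC10A cDC2s above DCIR2 cDC2s in both samples, without overlap, while cDC1s and CLEC10A cDC2s overlapped. Mature DCs held 11 and 1 UMIs of Pparg, and B cells, NK cells and pDCs at most 1 UMI in a sample. Relative to macrophages, the cDC1 share was 2.99% and 2.00% for Pparg and 0.410% and 0.305% for the macrophage markers. In DCIR2 cDC2s, Pparg at 0.437% and 0.395% lay below the markers at 0.937% and 1.04%. A Pparg UMI was found in 92.8% and 90.8% of macrophages (exact 95% intervals 89.3% to 95.5% and 84.4% to 95.1%) and in 11.8% and 9.86% of cDC1s (9.52% to 14.5% and 7.53% to 12.6%).

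Cebpb was measured at 164 and 192 CPM in macrophages. It was 25.8 and 35 CPM in T cells, 34.5 and 17 CPM in NK cells and 15.7 and 12.5 CPM in B cells. Among DCs it was 15.9 and 20.5 CPM in CLEC10A cDC2s, 12.2 and 18 CPM in DCIR2 cDC2s, 9.46 and 7.5 CPM in mature DCs and 3.54 and 6.81 CPM in cDC1s. Macrophages stood apart, the T cells and NK cells overlapped, and cDC1s were the lowest class in the order of the means, below mature DCs in both samples. Cebpb UMIs were found in every class of both samples. Its share of the macrophage level was 7.42% to 10.7% in the 4 cDC2 sums, above the 0.937% to 1.99% of the macrophage markers.

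Cebpa was measured at 63 and 69.7 CPM in CLEC10A cDC2s and 41.9 and 62.4 CPM in macrophages. It was 27.4 and 24.8 CPM in DCIR2 cDC2s, 15.7 and 23.7 CPM in cDC1s and 13.9 and 23 CPM in mature DCs. In T cells it was 3.22 and 7.33 CPM and in B cells 1.57 and 2.21 CPM. C/EBPα is the factor that sets early granulocyte and monocyte precursors apart from lymphoid ones, and its transcript was low in T and B cells. The NK values of 26.5 and 3.4 CPM overlapped those of T cells. Only the step from CLEC10A cDC2s to macrophages and the step below DCIR2 cDC2s showed no overlap among the myeloid classes, and the pDC values of 10.7 and 83.1 CPM lay below and above those of all other myeloid classes. A Cebpa UMI was found in 39.6% and 48.5% of macrophages and 38.4% and 41.9% of CLEC10A cDC2s.

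Spi1 was measured in every class. It was 619 and 607 CPM in DCIR2 cDC2s, 547 and 561 CPM in CLEC10A cDC2s, 513 and 449.8 CPM in mature DCs and 444 and 466 CPM in cDC1s. In pDCs it was 389 and 419 CPM and in macrophages 266 and 272 CPM. Macrophages were thus the lowest of the 6 myeloid classes in both samples. NK cells with 164 and 163 CPM, B cells with 152 and 119 CPM and T cells with 77.3 and 62.7 CPM followed, and only mature DCs and cDC1s overlapped as neighbours in this order. PU.1 is needed in B cells as well as in myeloid cells, and it is switched off in T cells. The NK and T values fell to a mean of 92.9 and 51.4 CPM when cells that met the rules of several classes were left out.

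Bach1 was measured at 168 and 195 CPM in CLEC10A cDC2s, 141 and 165 CPM in DCIR2 cDC2s and 129 and 132 CPM in mature DCs. It was 58.6 and 66.9 CPM in macrophages and 52.7 and 53.6 CPM in cDC1s, with 87.5 and 74.7 CPM in NK cells, 25.8 and 50.5 CPM in T cells and 17.3 and 46.4 CPM in B cells. Macrophages and cDC1s shared the low end of the myeloid range. The pDC level was 149 and 242 CPM, and its mean fell to 94.9 CPM when the cells that met several rules were left out.

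Nfe2l2 was the most even of the members across classes. It was 226 and 241 CPM in CLEC10A cDC2s, 153 and 219 CPM in mature DCs and 124 and 137 CPM in macrophages. In cDC1s it was 109 and 120.3 CPM, in DCIR2 cDC2s 104 and 137 CPM and in B cells, the lowest class, 83.2 and 68.6 CPM. From mature DCs down to NK cells the neighbours overlapped, so that order could not be resolved, while CLEC10A cDC2s lay above mature DCs in both samples. Within classes the UMIs were uneven. In mature DCs, Nfe2l2 UMIs were found in 45.7% and 47.4% of cells with a median of 0 per cell, while single cells held up to 24 and 47 UMIs in the 2 samples. In cDC1s single cells held up to 56 and 40 UMIs, and in macrophages up to 14 and 21.

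Because macrophages and cDC1s held more UMIs per cell than the other classes, the shares of cells with a UMI were repeated with every cell thinned to 3000 UMIs, which left out at most 1 cell per class and sample in the 9 classes. By the mean of both samples, 5 of the 7 members had their highest share in macrophages before thinning and 3 after it (Maf, Pparg and Cebpb, without Cebpa and Nfe2l2). Maf was then found in 98% and 97.7% of macrophages, Pparg in 64.2% and 63.1% and Cebpb in 36.9% and 37.7%. In the 8 other classes the thinned shares were at most 31.4% for Maf (NK cells, replicate 2), 3.36% for Pparg and 13.5% for Cebpb. Nfe2l2 fell from 73% and 76.2% of macrophages to 28.7% and 33.1%, and CLEC10A cDC2s were then at 36.4% and 40%. Spi1, found in 90.8% and 94.6% of macrophages before thinning, was found in 49.5% and 46.2% after it, against 81.1% and 76.7% of DCIR2 cDC2s. Intervals on shares cover counting error only.

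**Figure D2:**
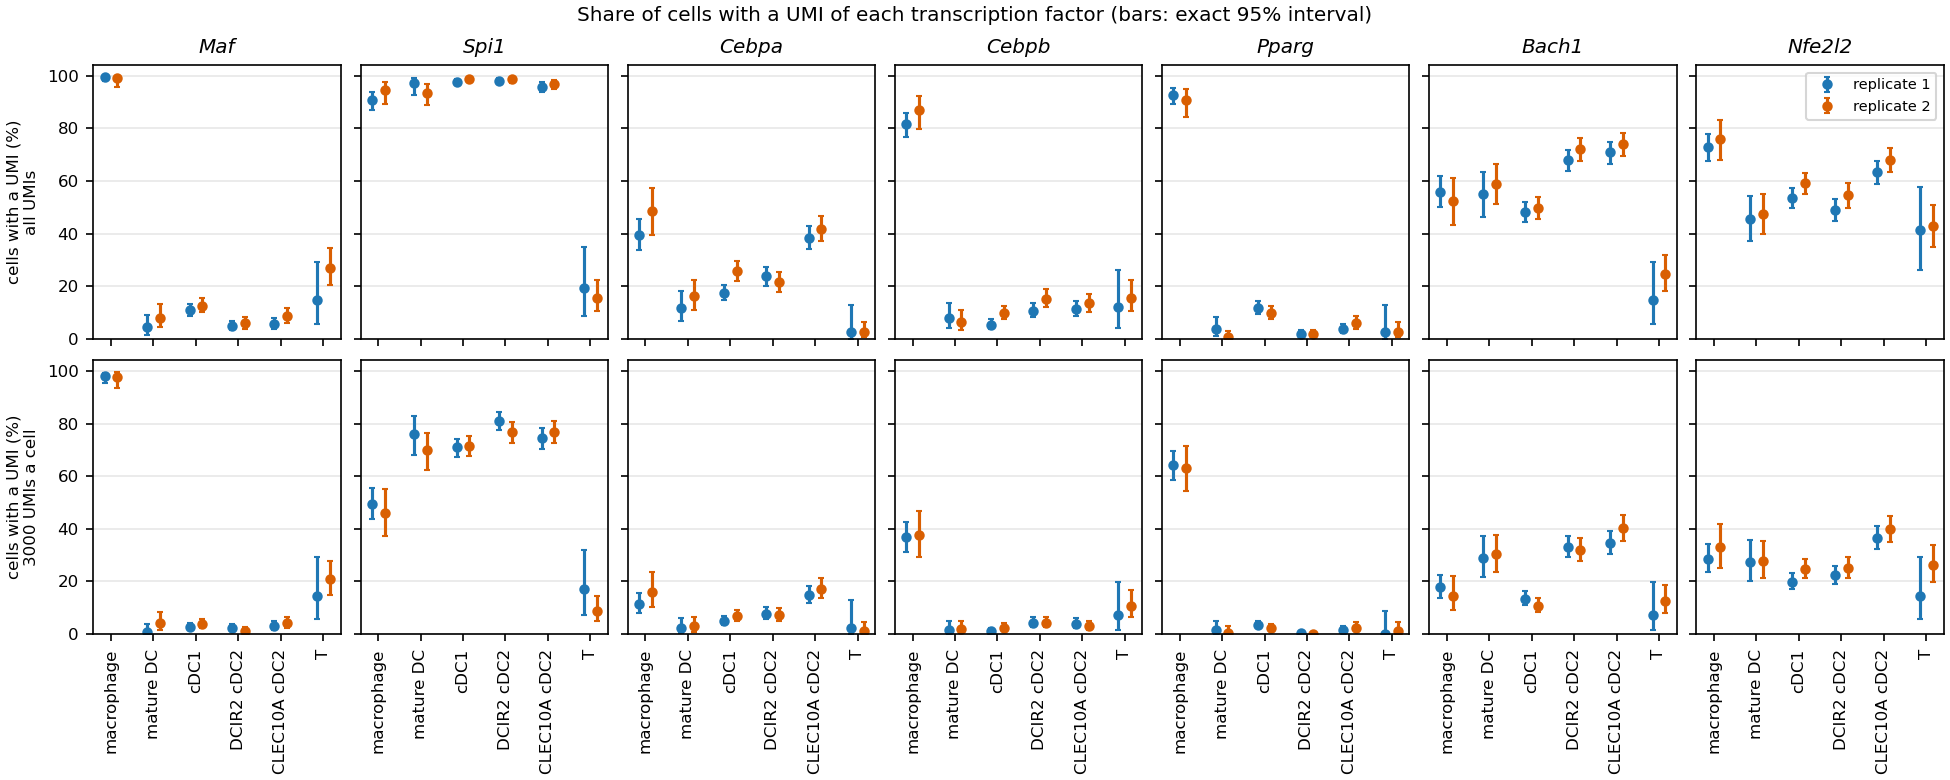
Share of cells with at least 1 UMI (y axis, percent) of each transcription factor in 6 classes, from all UMIs (top) and after thinning to 3000 UMIs per cell (bottom), for both samples with exact 95% binomial intervals. The thinned shares of Maf in macrophages stayed at 98% and 97.7%, whereas those of Spi1 fell to 49.5% and 46.2%.

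Pairs of the 3 macrophage-high members were found in most macrophages. Whether the pairs went together beyond their single shares was not tested. Both Maf and Pparg UMIs were found in 271 of 293 and 118 of 130 macrophages (92.5% and 90.8%). Both Pparg and Cebpb UMIs were found in 78.5% and 80.8%. All 7 members were found in the same cell in 57 and 25 macrophages (19.5% and 19.2%). Of the 7, Cebpa was seen in the fewest macrophages of both samples.

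Differences between classes were tested on UMI sums per sample and class with the quasi-likelihood test of edgeR, fitted over all 9 classes and adjusted by the Benjamini-Hochberg method over all 11903 genes tested. All adjusted p-values given below come from these fits. A log2 fold change is positive when the first-named class was higher, and it is given ± its standard error (SE). All 7 members passed the filter on low counts. The 5 comparisons of macrophages with DC classes share the macrophage sums, so they are not independent of each other. Both classes of a comparison also come from the same 2 samples, and p-values measure the spread between these samples, which may be technical. In the fit over 9 classes this spread is pooled from all of them. Its 9 residual degrees of freedom come from the same 2 samples and may not be independent.

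Against cDC1s, macrophages had higher Maf, Pparg, Cebpb and Cebpa and lower Spi1. For Maf, the log2 fold change was 7.31 ± 0.40 (edgeR adjusted p = 5.71e-12). For Pparg, it was 5.28 ± 0.25 (edgeR adjusted p = 8.99e-13). For Cebpb, it was 5.07 ± 0.26 (edgeR adjusted p = 2.44e-12). The change of Cebpa was smaller, with a log2 fold change of 1.34 ± 0.29 (edgeR adjusted p = 6.32e-04). Spi1 was lower by 1.74-fold, with a log2 fold change of -0.80 ± 0.12 (edgeR adjusted p = 1.81e-05). The antagonists Bach1 (0.19 ± 0.20) and Nfe2l2 (0.14 ± 0.20) were not called, with estimates close to 0. This made 4 members higher and 1 lower, where 25.2% of all genes tested were called higher and 25.3% lower.

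Against DCIR2 cDC2s, macrophages differed in 6 of 7 members. Maf was higher by 8.36 ± 0.44 and Pparg by 8.03 ± 0.33 on the log2 scale, 329-fold and 261-fold. Cebpb was higher by 3.72 ± 0.25 on that scale and Cebpa by 2.17-fold, the latter with an edgeR adjusted p of 0.00349. Spi1 (-1.03 ± 0.12) and Bach1 (-1.14 ± 0.20) were lower, by 2.05-fold and 2.21-fold. Nfe2l2 was not called (0.27 ± 0.20), but it was called at 0.53 (edgeR adjusted p = 0.0108, the lowest of 8 alternatives that reached 0.661) when cells that met several rules were left out. Of all genes tested, 26% were called higher and 24.9% lower.

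Against CLEC10A cDC2s, 3 members were higher and 3 lower in macrophages. Maf was higher by 6.81 ± 0.40, with 7.95 in replicate 1 alone and 6.09 in replicate 2 alone. Pparg was higher by 5.43 ± 0.27 and Cebpb by 3.39 ± 0.25 on the log2 scale. The lower members were Bach1 (-1.44 ± 0.20), Spi1 (-0.95 ± 0.12) and Nfe2l2 (-0.75 ± 0.20), the last with an edgeR adjusted p of 0.00401. Cebpa was not called (-0.28 ± 0.28). CLEC10A cDC2s were thus the only DC class of the 4 with more than 100 cells per sample whose difference in Cebpa from macrophages was not called. Of all genes tested, 23.7% were called higher and 22.6% lower.

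Against mature DCs, which have migrated or been activated and carry Ccr7, all 7 members were called. Maf was higher by 6.86 ± 0.43, with 8.18 and 6.22 in the single samples. Pparg was higher by 6.94 ± 0.37, with 5.90 and 9.36, the latter resting on 1 Pparg UMI in mature DCs of replicate 2. Cebpb (4.41 ± 0.32) and Cebpa (1.44 ± 0.36) were higher, while Bach1 (-1.06 ± 0.21) and Spi1 (-0.83 ± 0.13) were lower. Nfe2l2 was lower by 1.43-fold (edgeR adjusted p = 0.0413), a call that DESeq2 did not make (adjusted p = 0.0932, the highest of 8 alternatives that began at 0.00268). Of all genes tested, 24.8% were called higher and 26% lower.

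Against the 32 pDCs, Maf, Pparg and Cebpb were called higher and Bach1 lower in macrophages, where 15.9% of all genes were called higher and 13% lower. The pDCs held 0 and 2 Maf UMIs and 0 and 1 Pparg UMIs, so no fold change is given for these. Cebpb was higher by 4.61 ± 0.56, with 3.61 and 5.91 in the single samples, from 3 and 1 UMIs in pDCs. Bach1 had a log2 fold change of -1.44 ± 0.27 (edgeR adjusted p = 3.75e-04), which turned to 0.10 (edgeR adjusted p = 0.914, against a lowest value of 7.94e-07 over 8 alternatives) when cells that met several rules were left out and 4 and 7 pDCs remained. The median of all genes in this comparison was 0.15 on the log2 scale.

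**Figure D3:**
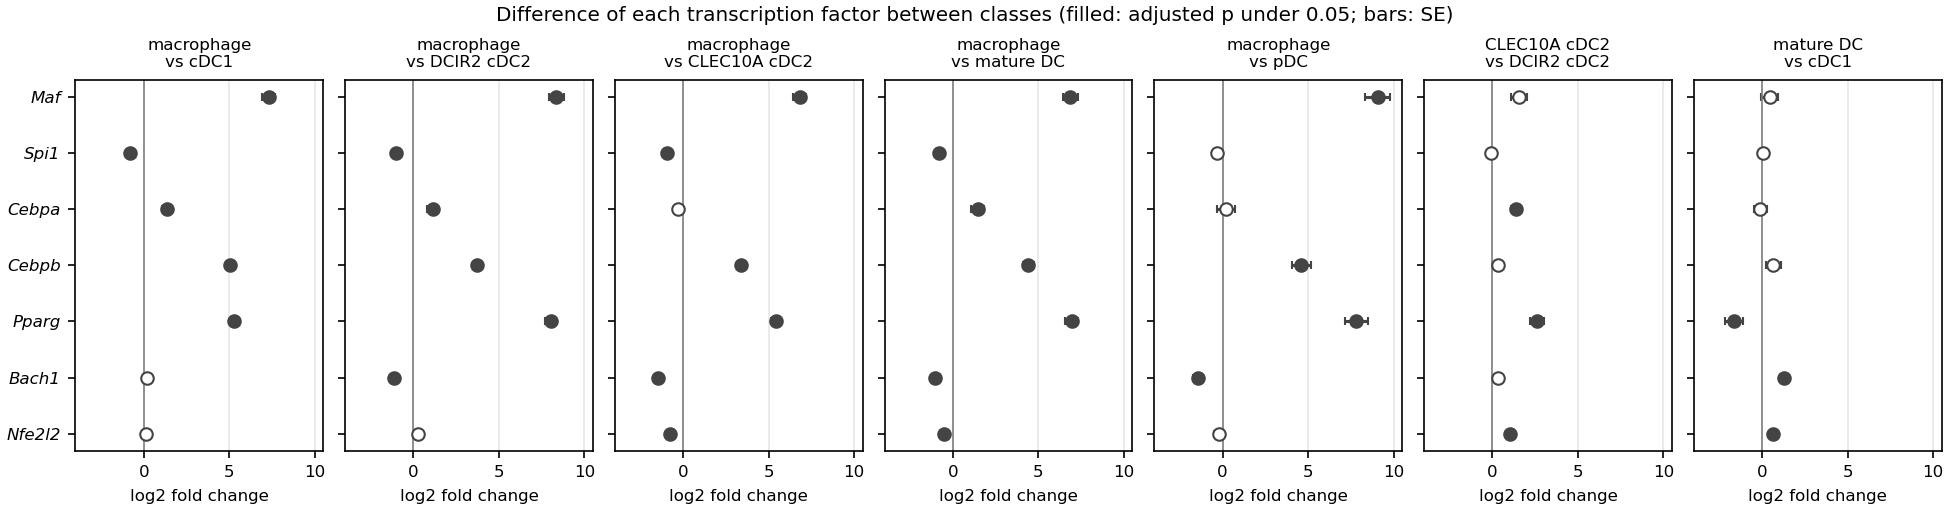
Log2 fold change of each transcription factor (x axis, with SE) in the 7 comparisons between classes, where filled points had an adjusted p under 0.05. Maf, Pparg and Cebpb lay to the right of 0 in the 5 comparisons with macrophages first, from 3.39 for Cebpb against CLEC10A cDC2s upward, and Spi1 lay between -1.03 and -0.34. Maf and Pparg against pDCs rest on 0 to 2 UMIs in pDCs.

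Between the cDC2 classes, 3 members were higher in CLEC10A cDC2s than in DCIR2 cDC2s, where 3.55% of all genes were called higher and 1.99% lower. Nfe2l2 was higher by 1.02 ± 0.19 on the log2 scale (edgeR adjusted p = 0.00274). Cebpa was higher by 1.40 ± 0.28 (edgeR adjusted p = 0.00442), with adjusted p-values between 1.75e-08 and 0.0518 over 8 alternatives, the highest by DESeq2. Pparg was higher by 2.61 ± 0.43 (edgeR adjusted p = 8.30e-04), from low counts of 42 and 62 against 13 and 10 UMIs. The difference of Maf, 1.55 ± 0.46, had an edgeR adjusted p of 0.0535 and was not called. By edgeR it was called with the sample as a block (adjusted p = 0.0194), all deposited cells (0.0323) or every rule threshold doubled (0.0241). It was also called without cells that met several rules (0.00267), with the 2 classes alone (0.0400) and without the filter on low counts (1.63e-09). DESeq2 and edgeR with its size factors did not call it, and the highest adjusted p of the 8 alternatives was 0.0713. In the single samples the difference of Maf was 0.37 and 2.28. Macrophage markers also summed higher in CLEC10A cDC2s (392 and 441 CPM) than in DCIR2 cDC2s (230 and 231 CPM), and Pparg in CLEC10A cDC2s was at 1.87% and 3.14% of its macrophage level where the markers were at 1.60% and 1.99% of theirs. The part of macrophage transcripts in the differences of Maf and Pparg was not tested. Spi1 (-0.09 ± 0.12), Bach1 (0.30 ± 0.19) and Cebpb (0.33 ± 0.27) were not called.

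Between mature DCs and cDC1s, Bach1 and Nfe2l2 were higher and Pparg lower in mature DCs, where 21.3% of all genes were called higher and 19.5% lower. Bach1 was higher by 2.38-fold, with a log2 fold change of 1.25 ± 0.20 (edgeR adjusted p = 4.69e-05). Nfe2l2 was higher by 1.58-fold, with a log2 fold change of 0.66 ± 0.20 (edgeR adjusted p = 0.0117). Both were higher in each sample (1.24 and 1.26 for Bach1, 0.43 and 0.83 for Nfe2l2). Pparg was lower, with a log2 fold change of -1.66 ± 0.52 (edgeR adjusted p = 0.0143), but the single samples gave -0.87 and -3.79, and the edgeR adjusted p lay between 0.0520 and 0.0677 under 3 of 8 alternatives and at 1.42e-04 under the lowest. Spi1, Maf, Cebpa and Cebpb were not called.

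Macrophages with a Siglec1 UMI were compared with those without, since Siglec1 encodes CD169, the mark of marginal metallophilic macrophages. There were 112 and 56 macrophages with a Siglec1 UMI and 181 and 74 without. Both groups first met the macrophage rule on Vcam1 and C1qb. Spic, a factor of red pulp macrophages (0.15 ± 0.08 on the log2 scale), Slc40a1 (0.03 ± 0.11) and Hmox1 (0.08 ± 0.07) were not called between them. Whether the cells with a Siglec1 UMI were marginal metallophilic rather than red pulp macrophages was not tested. None of the 7 members was called. By edgeR, 2 of 9579 genes were called in this comparison (0.0209%), with 347 at an unadjusted p under 0.05, and DESeq2 called 1 gene with 87 at that level. With the sample as a block, edgeR called 50 genes, none of them a member. Lyz2, a CEBP target gene that encodes lysozyme, was 1 of the 2 genes called and was lower with Siglec1 (60.3 and 109 CPM) than without it (599 and 3673 CPM), with a log2 fold change of -4.72 ± 0.64. The other was Tspan10, also lower with Siglec1, and both were named after their values were seen. No gene, Lyz2 and Tspan10 included, was called by edgeR without cells that met several rules (338 genes at an unadjusted p under 0.05) or with at least 2 Siglec1 UMIs (452 at that level). Maf was 2136 and 2048 CPM with Siglec1 and 1900.3 and 1768 CPM without it, a log2 fold change of 0.18 ± 0.09. Pparg was 385 and 469 CPM with and 429.7 and 384 CPM without (0.05 ± 0.13). Cebpa had the largest estimate of the members, -0.65 ± 0.27, from 38.2 and 39.2 CPM with and 44.6 and 81.2 CPM without, and its unadjusted p of 0.0333 did not pass the correction (edgeR adjusted p = 0.999). Cells without a Siglec1 UMI held fewer UMIs per cell (medians of 17903 and 17986.5 against 20859 and 19019).

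The relatives and partners of the members came from a list of 18 genes, of which 14 were tested. Against cDC1s, 7 were higher and 2 lower in macrophages, where 25.2% of all genes were called higher and 25.3% lower. The median log2 fold change was 0.40, against -0.04 over all genes tested. Of the small MAF proteins, which pair with NRF2 and BACH1, Mafg was higher in macrophages (1.45 ± 0.19), Mafk lower (-1.01 ± 0.22) and Maff not called (-0.58 ± 0.44).

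The ETS relatives of Spi1 behaved differently from it and from each other. Spic, the factor of red pulp macrophages, was 1980.5 and 1939 CPM in macrophages and 16.6 and 8.94 CPM in cDC1s (7.21 ± 0.24). Spib was 2.53 and 5.71 CPM in macrophages and 3.62 and 3.92 CPM in cDC1s and was not called (-0.11 ± 0.49). It was 66.5 and 63 CPM in CLEC10A cDC2s, 170.3 and 164 CPM in mature DCs and 409.7 and 386 CPM in B cells, and macrophages lay below CLEC10A cDC2s by a log2 fold change of -4.06 ± 0.38 and below mature DCs by one of -5.52 ± 0.37. Within the C/EBP family, Cebpd was 85.3 and 84.4 CPM in macrophages, 51.5 and 50.6 CPM in CLEC10A cDC2s and 8.14 and 6.64 CPM in cDC1s, and was higher in macrophages than in either. Cebpg, which lacks an activation domain, was called at 0.51 ± 0.16 against cDC1s.

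Rxra, the partner with which PPARγ binds DNA, was 121 and 113 CPM in macrophages and 12.4 and 10.8 CPM in cDC1s (3.30 ± 0.24). Rxrb (-0.04 ± 0.17) and Ppard (0.32 ± 0.23) were not called. Bach2, the lymphoid relative of Bach1, was 449 and 689 CPM in B cells and 15.9 and 13.9 CPM in macrophages, and it was lower in macrophages than in CLEC10A cDC2s (-2.59 ± 0.27). Of the NRF2 relatives, Nfe2l1 was higher in macrophages than in cDC1s (1.47 ± 0.19) and Nfe2l3 lower (-2.75 ± 0.67). Keap1, which holds NRF2 in the cytoplasm and marks it for decay, was 51.2 and 49.3 CPM in macrophages and 37 and 33.3 CPM in cDC1s (0.48 ± 0.15). Mafa, Cebpe, Ppara and Nfe2 had too few UMIs to be tested.

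NRF2 and BACH1 target genes were mostly higher in macrophages, while Nfe2l2 and Bach1 themselves were not called against cDC1s. Of 18 tested, 15 were higher and 2 lower than in cDC1s (25.2% and 25.3% of all genes), with a median of 1.88. Slc40a1, which encodes the iron exporter ferroportin, was 6659.6 and 5320.1 CPM in macrophages and 13 and 6.3 CPM in cDC1s (9.23 ± 0.35). Hmox1, which encodes the haem-degrading haem oxygenase, was 5084 and 4956 CPM in macrophages, against 61.2 and 62.5 CPM (6.30 ± 0.22). Blvrb, a biliverdin reductase, was 386 and 346 CPM in macrophages, against 4.6 and 4.43 CPM (6.30 ± 0.22). The 3 largest differences of this list thus fell on haem and iron genes, of which Slc40a1 is also among the 12 macrophage markers. Among the antioxidant genes, Srxn1 (2.76 ± 0.51) had the largest difference. Gclm, Txnrd1, Prdx1 and G6pdx, whose promoter matches are printed above, were higher by 2.09, 1.67, 1.61 and 2.52 on the log2 scale. The 2 lower genes were Taldo1 of the pentose phosphate pathway (-0.58 ± 0.18) and Gclc, the catalytic subunit of glutathione synthesis (-0.48 ± 0.18). Gclc was highest in mature DCs, with 547 and 398 CPM.

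Against DCIR2 and CLEC10A cDC2s, 15 and 14 of these 18 target genes were higher in macrophages and 0 lower, where 26% and 23.7% of all genes were called higher. Against mature DCs, 13 were higher and 2 lower, where 24.8% and 26% of all genes were. The 2 lower ones were Gclc (-3.02 ± 0.19) and Slc7a11 (-2.82 ± 0.54), which imports cystine. Between the cDC2 classes 4 of 18 were higher in CLEC10A cDC2s and 0 lower (3.55% and 1.99% of all genes), namely Hmox1 (1.09 ± 0.24), Fth1 (0.77 ± 0.11), G6pdx (1.02 ± 0.21) and Gsr (1.36 ± 0.21), and Nfe2l2 was higher there as well. Hmox1 was 221-fold higher in macrophages than in CLEC10A cDC2s. Macrophage markers also summed higher in CLEC10A cDC2s than in DCIR2 cDC2s, as given above. The part of macrophage transcripts in these 4 differences was not tested. Between mature DCs and cDC1s, where Nfe2l2 and Bach1 were both higher in mature DCs, 7 of 18 were higher and 5 lower, beside 21.3% and 19.5% of all genes. Macrophages also held the highest erythroid markers, as given above, and their part in the levels of haem and iron genes was not tested.

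**Figure D4:**
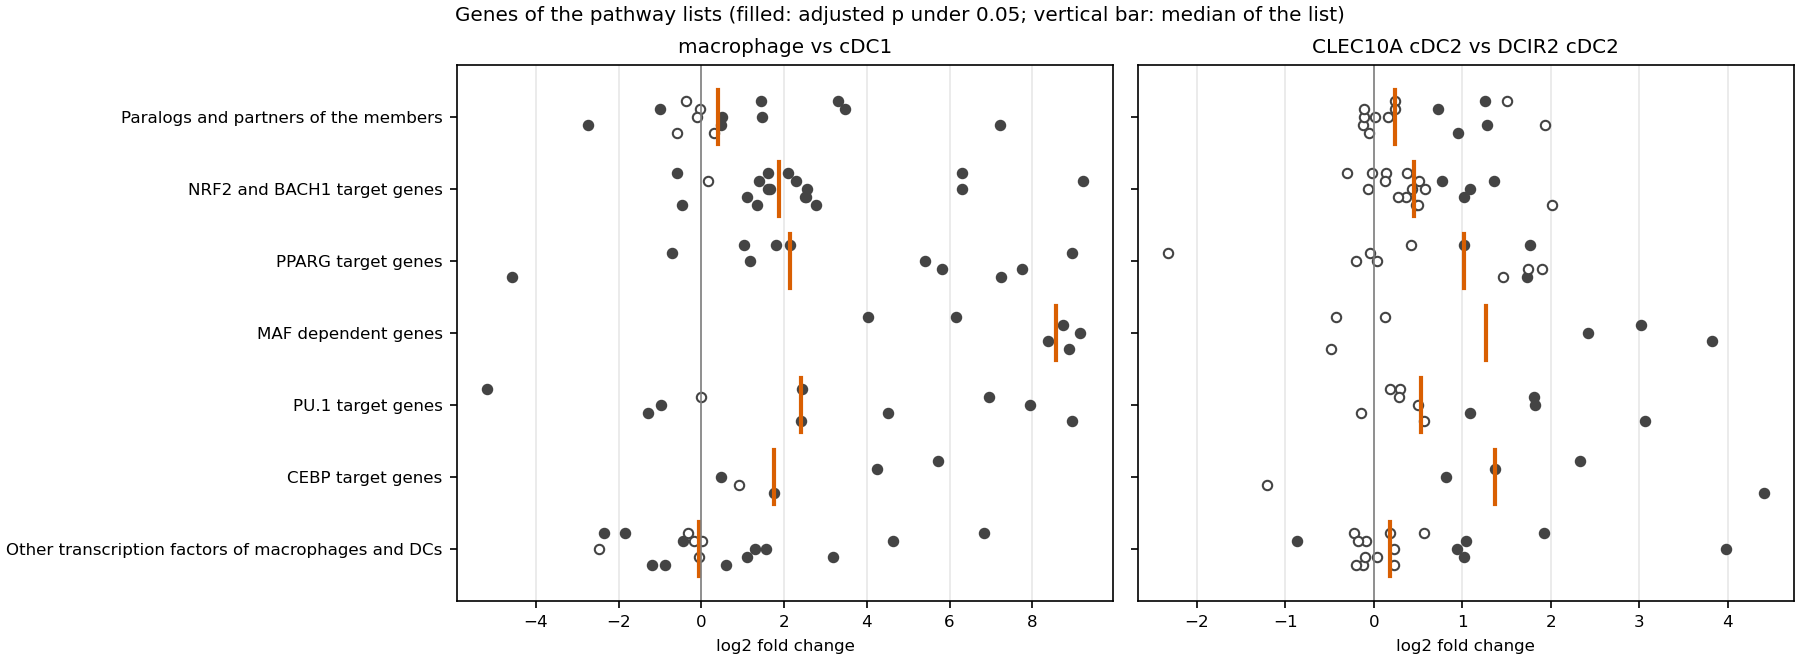
Log2 fold change (x axis) of the tested genes of 7 lists between macrophages and cDC1s (left) and between CLEC10A and DCIR2 cDC2s (right), with 1 point per gene, filled where the adjusted p was under 0.05, and a vertical bar at the median of the list. The median of the NRF2 and BACH1 target genes was 1.88 on the left and 0.46 on the right, and the rightmost PPARG target gene on the left, Fabp4, was not found in cDC1s.

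PPARG target genes were higher in macrophages for 9 of 11 tested against cDC1s and lower for 2 (25.2% and 25.3% of all genes). Their median was 2.15. Fabp4, a fatty acid binding protein, was 17.9 and 15.5 CPM in macrophages and was not found in cDC1s. Set against a floor of 3 UMIs over both cDC1 sums, it was at least 143-fold higher, and the median of the list was the same with this bound. Lpl, which encodes lipoprotein lipase, was 425 and 346 CPM in macrophages and 2.86 and 0.426 CPM in cDC1s (7.76 ± 0.42). Nr1h3, which encodes the oxysterol receptor LXRα, was 222 and 206 CPM in macrophages, against 1.66 and 1.02 CPM (7.23 ± 0.32). Angptl4, an inhibitor of lipoprotein lipase, was 13.4 and 8.16 CPM in macrophages and 0.226 and 0.0851 CPM in cDC1s. The 2 lower genes were the scavenger receptor Cd36, with 20.8 and 15.1 CPM in macrophages and 458 and 417 CPM in cDC1s (-4.59 ± 0.39), and Acadl of fatty acid oxidation (-0.70 ± 0.15). Between the cDC2 classes, Plin2, Cpt1a and Nr1h3 were higher in CLEC10A cDC2s, which made 3 of 11, beside 3.55% of all genes. The median of the list was 1.02 there, and the part of macrophage transcripts in it was not tested.

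MAF dependent genes were higher in macrophages for all 6 tested against cDC1s, beside 25.2% of all genes, with a median of 8.57. However, C1qa and C1qc of this list neighbour the C1qb gene that chose the macrophages. Of the 7 genes of the list, 5 are also among the 12 macrophage markers. Cd163, the haemoglobin scavenger receptor, was 385 and 291 CPM in macrophages and 0.904 and 1.02 CPM in cDC1s (8.38 ± 0.28). Cd5l, a scavenger protein secreted by macrophages, was 825 and 670.1 CPM in macrophages, against 2.03 and 0.936 CPM (8.88 ± 0.26). In T cells, which had the next highest Maf, Cd163 was not found and Cd5l was 0 and 2.44 CPM. In NK cells, Cd163 was 0 and 3.4 CPM and Cd5l 2.65 and 3.4 CPM. Both genes were thus at or near 0 in the lymphoid classes with Maf.

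PU.1 target genes were split, as 6 of 10 were higher and 3 lower in macrophages than in cDC1s (25.2% and 25.3% of all genes). The largest differences were in the growth factor and phagocytic receptors. Fcgr1, an IgG receptor, was 117 and 120.3 CPM in macrophages and 0.151 and 0.255 CPM in cDC1s. Mrc1, the mannose receptor, was 1647 and 1648 CPM in macrophages, against 7.38 and 5.53 CPM. Csf1r, the receptor for the macrophage growth factor, was 3411 and 3507 CPM in macrophages, against 31.6 and 22.6 CPM. Flt3, the DC growth factor receptor, went the other way, with 19.5 and 11.8 CPM in macrophages and 592 and 586 CPM in cDC1s (-5.18 ± 0.28). Ncf1 of the phagocyte oxidase was also lower in macrophages (-1.28 ± 0.15). The Spi1 level was lower in macrophages, so the targets that were higher moved opposite to it.

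Of 10 CEBP target genes, 5 were tested, and 4 of these were higher in macrophages than in cDC1s, beside 25.2% of all genes. Cd14, the lipopolysaccharide co-receptor, was 349.5 and 396 CPM in macrophages and 5.8 and 8 CPM in cDC1s (5.71 ± 0.26). Csf3r, the receptor for granulocyte colony-stimulating factor, was 70.7 and 66.1 CPM in macrophages, against 3.84 and 3.06 CPM (4.26 ± 0.36). Il1b was higher by 0.49 ± 0.20, just past the threshold (edgeR adjusted p = 0.0498). Lyz2, the remaining called gene, had a log2 fold change of 1.76 ± 0.55, but the single samples gave -0.18 and 2.86. Between the cDC2 classes the same number, 4 of 5, were higher in CLEC10A cDC2s, where Cebpa was higher too and 3.55% of all genes were called higher. These were Lyz2 (4.41 ± 0.62), Cd14 (2.33 ± 0.42), Csf3r (1.37 ± 0.34) and Il1b (0.81 ± 0.20). Lyz2 is also in the list of CLEC10A cDC2 markers used to check that class. Monocyte markers, a list that holds Cd14, also summed higher in CLEC10A cDC2s (1030.4 and 1076 CPM) than in DCIR2 cDC2s (817 and 863 CPM), as did the macrophage markers given above, and their part in these differences was not tested. Lyz2 differed between the samples in macrophages, with 374 and 2077 CPM.

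Other transcription factors of macrophages and DCs were higher in macrophages than in cDC1s for 7 of 17 tested and lower for 5, with a median of -0.06, where 25.2% of all genes were called higher and 25.3% lower. Tfec (6.84 ± 0.40) and Mitf (3.19 ± 0.25), of the lysosomal factor family, and Zeb2 (4.65 ± 0.20), a factor of the monocyte and cDC2 branch, were higher. Irf8 (-2.36 ± 0.18) and Batf3 (-1.85 ± 0.18), on which cDC1s depend, were lower. None of the estimates in this list was as large as that of Maf (7.31 ± 0.40), but the gap to Tfec was not tested. Spic, a factor of the list of relatives, was at 7.21 ± 0.24.

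For each member, the genes with the most similar pattern were sought by the Pearson correlation of log2(CPM + 10) over the 18 class sums, among 9305 genes. The 18 sums come from 2 samples, so the points share libraries, and the correlations are a description. The genes most like Maf were Pld3 (r = 0.963), Wwp1 (0.959) and Tmem65 (0.938). Those most like Pparg were Gm4951 (0.985), Tspan4 (0.984) and Ank2 (0.982), and those most like Cebpb were Por (0.960), Pccb (0.946) and Neu1 (0.946). All 9 of these genes were highest in macrophages. Spi1 was most like Rp2 (0.955), Cyb5r3 (0.953) and Cyp27a1 (0.941), which were highest in DC classes. Bach1 was most like Gm5431 (0.953), Marveld1 (0.937) and Ptpro (0.928). Cebpa (Naip5, 0.898) and Nfe2l2 (Ccl9, 0.834) had the weakest best matches of the members, and Wfdc17 was among the 3 nearest genes of both.

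Among the members, Maf was most like Cebpb (r = 0.893), and Pparg too was most like Cebpb (0.844). Bach1, Nfe2l2, Spi1 and Cebpa were related to each other, with r between 0.630 for Spi1 with Cebpa and 0.781 for Cebpa with Nfe2l2. Cebpa was also positively related to Pparg (0.470), Cebpb (0.224) and Maf (0.071). Pparg had r of 0.045 with Spi1, 0.109 with Nfe2l2 and -0.120 with Bach1. Maf was negatively related to Spi1 (-0.500) and Bach1 (-0.407) over the same 18 sums. Cells that no rule took held 28.8 and 45.6 CPM of Maf and 589 and 584 CPM of Spi1, nearer to the DC classes than to macrophages.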

How the data were processed

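Single-cell transcriptomes of 2 wild-type spleen samples were analysed. The authors deposited raw UMI counts per cell and gene, without normalization, made with the BD Rhapsody WTA Analysis Pipeline 1.12.1 on GRCm38 with PhiX and GENCODE vM19. Intronic reads were counted, refined cell calling was on and UMIs were error-corrected. The submitters' processing notes also name R 4.2.3 and Seurat 4.3.0.1. Introns add unspliced transcripts to the counts, and long genes gain most from them.

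Cells were kept with at least 200 genes and within the mean ± 3 median absolute deviations (constant 1.4826) of the percentage of mitochondrial UMIs, the genes and the UMIs, counting genes found in at least 3 cells. This kept 2928 and 2723 of 3308 and 3085 cells. Doublets were not called. Cells that met the rules of several classes were left out in an alternative. The UMIs of a class were summed per sample (187601 to 13271670 UMIs), because cells are not replicates. The sums were tested with edgeR 4.0.16 in R 4.3.3 (TMM, filterByExpr, quasi-likelihood test, class as the only term, 9 residual degrees of freedom, Benjamini-Hochberg adjustment, threshold 0.05), and the Siglec1 comparison in a fit of its own with 2 residual degrees of freedom. The SE was taken as the size of the log2 fold change over the root of F. Alternatives were DESeq2 1.42.0, its size factors, no filter on low counts, the sample as a block, other cell and gate settings, the 2 classes alone and single samples. The fits were also run on simulated counts drawn independently for each sum, so effects shared by the classes of a sample were not covered. Sums, shares and figures used Python 3.11.15 with scipy 1.17.1.

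Both classes of a comparison come from the same samples, so replicate numbers pair them. The deviations of a sample from the class means correlated with r between 0.0034 and 0.209 in the 8 comparisons. The 2 samples were not duplicates of the same counts, since chi-square tests within each class gave 2.31 to 6.09 per degree of freedom. UMIs of a gene can cluster in single cells, so these values cannot tell whether the samples shared a library preparation. A share of 0 allows up to 3 cells of the total.

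The members, the lists and the tests were chosen with earlier results of these data known. By rule, the text names all members, all relatives and partners except 1 that is not reported here, and of each other list up to 4 called genes with the largest change against cDC1s and 1 direction in both samples, plus up to 2 called in the opposite direction, and the 3 genes most like each member with at least 20 CPM in their highest class. Other list genes (Gclm, Txnrd1, Prdx1, G6pdx, Slc7a11, Fth1, Gsr, Plin2, Cpt1a and Lyz2) were named after their values were seen.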

Additional observations from a re-analysis of the deposited data

How the results depend on the processing

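Most results on the members held under other settings. With DESeq2, 53 of 56 member differences kept their direction and their side of the threshold, with the sample as a block 54 and without the filter on low counts 53. The block changed 1 call, that of Maf between the cDC2 classes. Differences that changed sign were, apart from Bach1, not called in the first place. Against pDCs, Bach1 became 0.10 and Nfe2l2 0.48 without cells that met several rules, and Nfe2l2 0.12 with every gate threshold doubled. Spi1 between the cDC2 classes became 0.014 with doubled thresholds. Between mature DCs and cDC1s, Spi1 became -0.14 without the filter on low counts, -0.011 with all deposited cells and -0.026 without cells that met several rules, and Cebpa became 0.059 and 0.064 under the last 2 settings. Between macrophages with and without Siglec1, Cebpb became -0.013 without the filter, -0.0083 with the block, -0.0094 with all cells and -0.0097 with at least 2 Siglec1 UMIs, and Pparg -0.013 with all cells. The cause was not tested.

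The number of genes called between the cDC2 classes was 660, and 1773 when these classes alone were fitted. Between macrophages with and without Siglec1 it was 2, with 1 by DESeq2, 74 without the filter, 50 with the block, 10 with all cells, 0 by edgeR without cells that met several rules (338 at an unadjusted p under 0.05) and 0 by edgeR with at least 2 Siglec1 UMIs (452 at that level). The members with their highest share of cells in macrophages numbered 5, and 3 after thinning. Leaving out a sample leaves no residual degrees of freedom, so it gave fold changes but no counts of genes, and none where the remaining sums held 0 UMIs. With 2 samples, small differences of Cebpa and Nfe2l2 and all values of the 32 pDCs are the least certain, and low counts limit Pparg outside macrophages.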
